A study of Arabidopsis thaliana with 6 samples.

Results

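The genes described here encode enzymes that build the branched-chain amino acids (BCAAs) valine, leucine and isoleucine. They are 10 Arabidopsis loci chosen by locus identifier, among 21671 transcripts with a read in any library. They cover acetolactate synthase (CSR1), ketol-acid reductoisomerase (KARI), dihydroxyacid dehydratase (DHAD), the isopropylmalate synthases IPMS1 and IPMS2, the isopropylmalate dehydrogenases IMD1, IMD2 and IMD3, and the aminotransferases BCAT3 and BCAT5. All 10 had enough reads to be tested.

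RNA was compared between leaf mesophyll protoplasts, wall-less leaf cells, of Arabidopsis thaliana Col-0 that received 35S:GmWRI1-A and those that received 35S:mCHERRY, a plasmid for a red fluorescent protein that served as the negative control. GmWRI1-A is a soybean form of WRINKLED1 (WRI1), which belongs to the AP2 family of transcription factors and is known for raising oil synthesis in seeds, and the 35S promoter is active in most plant cells. Each group had 3 biological replicates, all harvested 16 h after transfection. Transfected cells were not described as sorted from untransfected ones, so a value averages over both, and in such bulk RNA fewer cells of a type and less RNA per cell cannot be told apart.

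BCAA synthesis runs in the plastid and draws on pyruvate, which is also the substrate of plastid pyruvate dehydrogenase (PDH) on the way to fatty acids. Acetolactate synthase joins 2 pyruvate molecules for valine and leucine, or pyruvate and 2-oxobutyrate for isoleucine. The reductoisomerase and the dehydratase then act on both lines. The leucine branch adds acetyl-CoA through isopropylmalate synthase, followed by an isomerase and a dehydrogenase, and aminotransferases complete all 3 amino acids. In leaves the pathway is known as the target of herbicides that block acetolactate synthase, and it is held in check by feedback from its products. The comparison asks whether transcripts of this competing use of plastid pyruvate changed when GmWRI1 was supplied.

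The libraries held 11748328, 6962316 and 4950522 gene counts for GmWRI1 replicates 1, 2 and 3, and 8227115, 6253001 and 4155836 for mCHERRY replicates 1, 2 and 3. Levels are given as CPM, a count scaled to a common library size, here after TMM scaling for differences in library composition. A count of 0 allows up to 3 counts, or 0.255 to 0.722 CPM across libraries (counting error only). The 4 mesophyll markers examined were all detected, with summed levels of 882 to 975 CPM in GmWRI1 and 262 to 281 CPM in mCHERRY libraries. RBCS1A, GLDP1 and RCA were higher in GmWRI1 libraries (log2 fold change 2.95, 1.98 and 1.23), and CA1 had a value of -0.15 that did not pass the test. RBCS1A has closely similar copies, and reads that fit several of them equally were not kept, so its count is uncertain. The share of such reads was not examined. The 6 markers of guard cells, epidermis and phloem had 0 to 4 counts in every library and summed to 0.607 to 1.11 CPM in GmWRI1 and 0.611 to 1.24 CPM in mCHERRY libraries. PDF1 was at 0 in all GmWRI1 libraries, and KAT1 and SUC2 were at 0 in all mCHERRY libraries. The part of the rise in mesophyll markers in the results below was not tested.

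WRI1 proteins are known to bind the AW Box, CNTNGNNNNNNNCG, and the study paired it with the CNC Box, CNCCNCC. Both motifs were searched on both strands within 500 bp upstream and 500 bp downstream of each transcription start site (TSS) in the RefSeq annotation of TAIR10.1. The AW Box matches downstream of member start sites are printed here because they lie in the member's own gene, whereas the upstream matches lie in neighbouring genes. The sequences read 5′ to 3′ on the strand of the match, with the 14 bases of the match in capitals and 8 flanking bases on each side.
IPMS1: ttcttcttCCTCGTGGGTAACGacgatata
IPMS2: ccgtcgccCGTCGCCGCCGCCGccacacta
KARI, first: tgctacaaCTTAGAAAATGGCGgcggctac
KARI, second: ctcagagaCTTGGAAGAAGACGagaggaaa
BCAT3: attacctaCTTTGTCCTTCACGcgccttct
IMD1: ccgcttcaCCTGGGAAAAAACGgtataaca
IMD2: ttgcttccCCTGGTAAAAAACGatacacca

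In IPMS1 the printed match lay in the 5′ UTR (chr1:6369110-6369123, plus strand). It overlapped another, shifted by 3 bases (chr1:6369113-6369126), that matches on both strands, so the 3 matches of IPMS1 fall in a single stretch. The IPMS2 match was also in the 5′ UTR (chr1:27842203-27842216, plus strand), inside a run of CNC Boxes with which it shares bases. The first KARI match (chr3:21671553-21671566, plus strand) spanned the border of the 5′ UTR and the coding sequence, and the second was in coding sequence (chr3:21671682-21671695, minus strand). Matches in coding sequence were also found in BCAT3 (chr3:18422813-18422826), IMD1 (chr5:4576343-4576356) and IMD2 (chr1:30287944-30287957), all on the plus strand.

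The IMD1 and IMD2 matches are the corresponding stretch of related genes. Positions are counted from 1 at the 5′ end of the 14 capital letters. IMD2 differs from IMD1 inside the match by G6T, and the AW Box leaves that position free. IMD3 has its corresponding stretch at chr1:11144490-11144503 on the minus strand, and differs from IMD1 by T3G and G5T, both at bases that the AW Box fixes.
IMD3, corresponding stretch without a match: ccgcttcaCCGGTGAAAAAACGgtataaca
Of the 30 bases shown, IMD3 differed from IMD1 at 2 and IMD2 differed from IMD1 at 7. The member with the closest sequence to IMD1 therefore lacked the match that the more distant IMD2 had.

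Downstream of the start, 6 of 10 members had an AW Box, against 42.7% of 14604 tested genes with a mapped start and 38.2% of 34838 annotated genes. Upstream, 4 of 10 members had one (CSR1, KARI, IMD3 and IPMS2), against 19.7% of tested genes and 19.2% of all genes. All of these upstream matches lay inside a neighbouring gene. A CNC Box was found downstream in 9 of 10 members (all but BCAT5), against 51.9% of tested genes, and upstream in 6 of 10, against 21.8%. DHAD and BCAT5 had no AW Box letters in either window. The annotated start of BCAT5 lies inside the upstream gene LINC4, and both of its windows fall within that gene. A match is a run of letters and not a measured site, and binding was not analysed here.

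**Figure D1:**
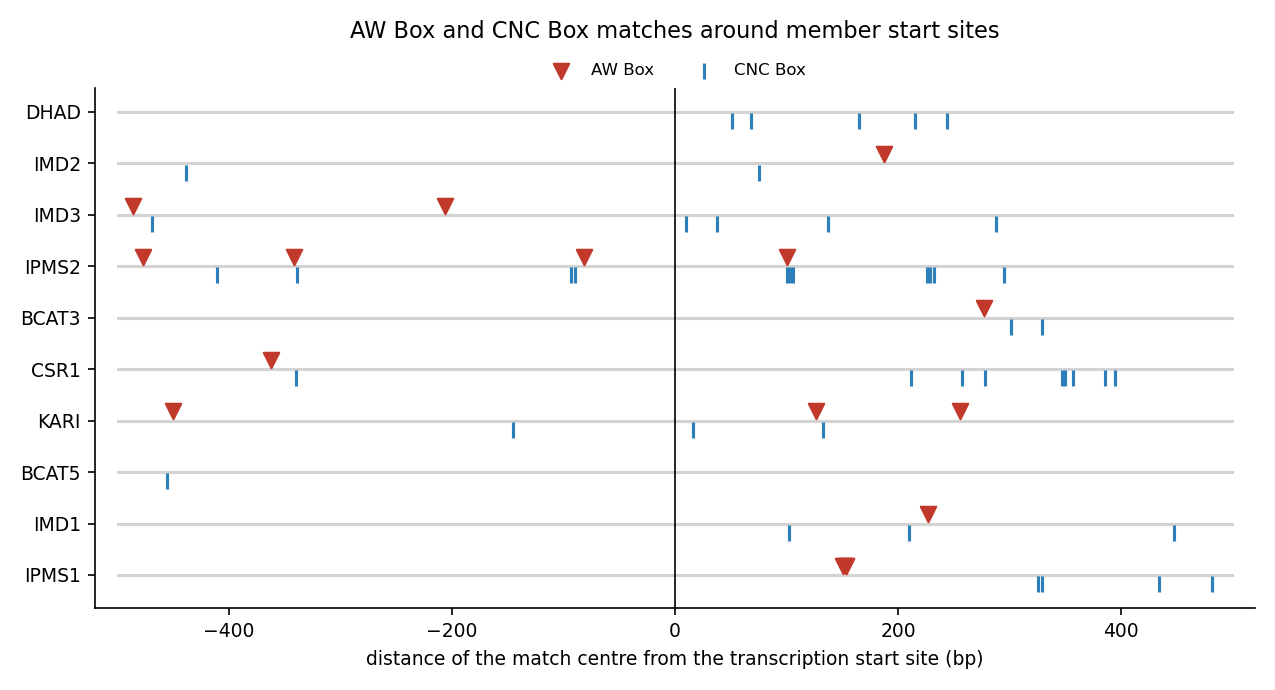
Positions of AW Box (triangles) and CNC Box (ticks) matches from 500 bp upstream to 500 bp downstream of the transcription start site, for the 10 members in order of log2 fold change from the highest at the top. DHAD, at the top, has 5 CNC Boxes and no AW Box, and IPMS1, at the bottom, has 3 overlapping AW Box matches.

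Of the 10 members, 6 were higher in GmWRI1 than in mCHERRY protoplasts, each by less than the fold limit of 1 on the log2 scale, and 4 (IPMS1, IMD1, IMD2 and BCAT5) did not pass the test. All 10 members had a fitted log2 fold change above 0, where 48.7% of tested genes did. The values ran from 0.23 in IPMS1 to 0.76 in DHAD, with a median of 0.52 against -0.01 over all 14762 tested genes. With an adjusted p under 0.05 and no fold limit, 6 members were higher (CSR1, KARI, DHAD, IPMS2, IMD3 and BCAT3) and 0 were lower, where 20.4% of tested genes were higher and 14.6% lower. With the further requirement of a log2 fold change over 1, 0 members were up and 0 down, where 9.44% of tested genes were up and 1.45% down (edgeR quasi-likelihood test, Benjamini-Hochberg adjustment over all tested genes).

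At an unadjusted p under 0.05, 8 members were higher without the fold limit and 0 with it. The share of all tested genes under that looser rule was not computed, so the 8 cannot be set against it. DESeq2 and edgeR's exact and likelihood ratio tests also gave 0 members past the fold limit, and without it 6, 7 and 7. Over all 15 alternatives, 2597 to 3342 of all tested genes were higher without the fold limit, against 3017 in the main test. In 8 members the GmWRI1 libraries all exceeded the mCHERRY libraries, as in 24.9% of tested genes, and IMD1 and IMD2 overlapped. The 10 members together took 654, 598 and 652 CPM in GmWRI1 libraries, against 494, 494 and 460 CPM in mCHERRY libraries. The means of these sums were 635 ± 31.4 CPM and 483 ± 19.6 CPM (SD, n = 3 each).

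**Figure D2:**
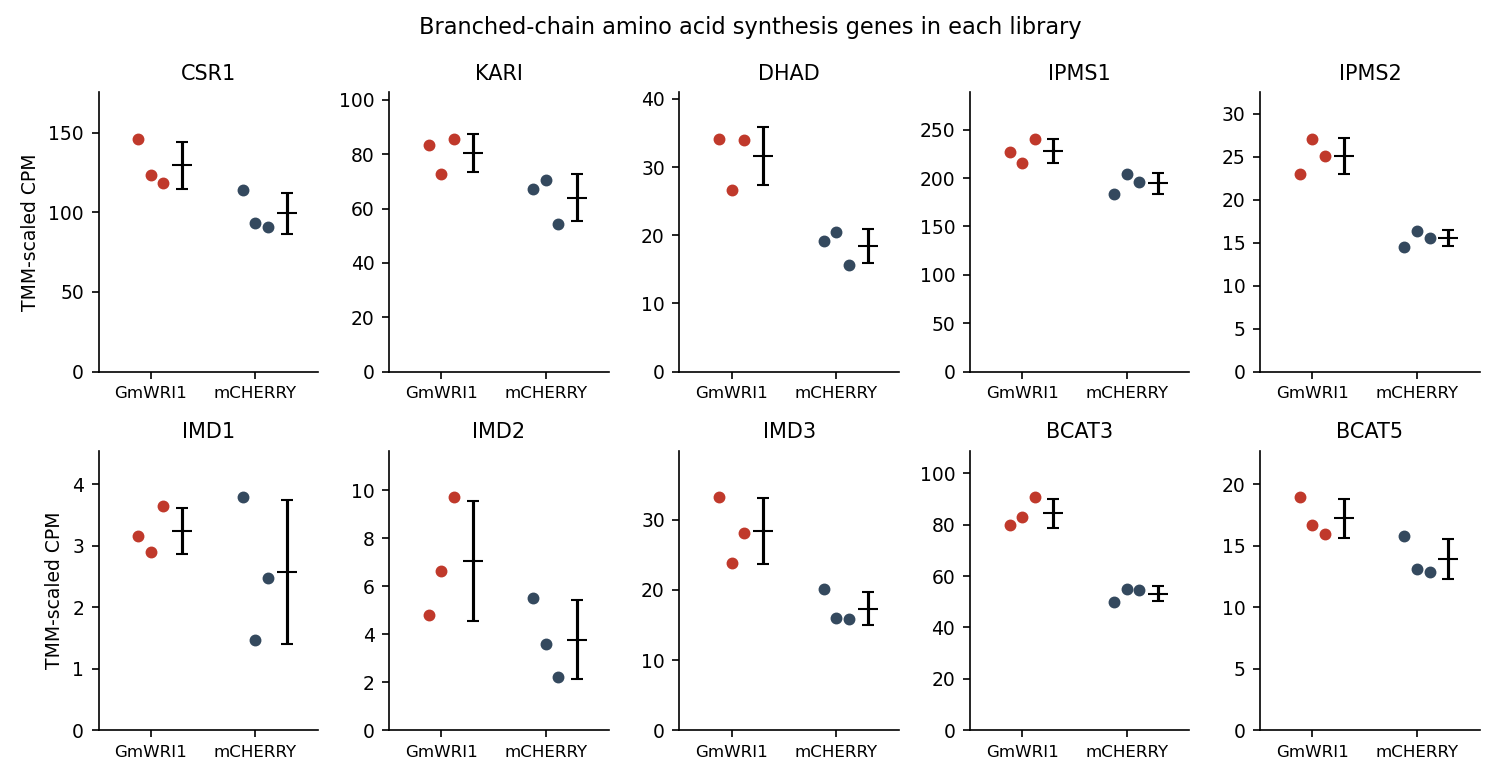
TMM-scaled CPM (y axis, from 0, with its own range in each panel) of each member in each library, GmWRI1 at the left in red and mCHERRY at the right in dark blue. The dash and bar beside the points are the mean and SD of 3 libraries. The groups overlap in IMD1 and IMD2 alone.

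Acetolactate synthase catalyses the step at which pyruvate enters the pathway. CSR1 (AT3G48560, chr3:18001283-18003749, minus strand, a single exon) encodes its catalytic subunit. It had 146, 124 and 118 CPM in GmWRI1 libraries (1711, 893 and 585 counts), against 114, 93.0 and 90.8 CPM in mCHERRY libraries (934, 573 and 367 counts). The lowest GmWRI1 library and the highest mCHERRY library were close, but the groups did not overlap. CSR1 rose by 0.38 on the log2 scale (SE 0.11, edgeR adjusted p = 0.00861), a 1.30-fold level with a 95% interval of 1.11 to 1.52. The call did not hold without GmWRI1 replicate 1 (0.28, edgeR adjusted p = 0.0609) or without mCHERRY replicate 2 (0.33, edgeR adjusted p = 0.071), and the adjusted p ranged from 0.00111 to 0.071 over all 15 alternatives.

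The regulatory subunits of the same enzyme gave no call. AIP1, a regulatory subunit that confers feedback sensitivity, averaged 5.08 ± 1.14 CPM in GmWRI1 and 3.45 ± 1.07 CPM in mCHERRY libraries (SD, n = 3 each; log2 fold change 0.46, SE 0.30, edgeR adjusted p = 0.255). AIP3, the other regulatory subunit, averaged 16.2 ± 2.14 CPM in GmWRI1 and 20.1 ± 2.75 CPM in mCHERRY libraries (SD, n = 3 each; -0.28, SE 0.16, edgeR adjusted p = 0.186). The groups overlapped in both.

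The next steps are shared by all 3 amino acids. KARI (AT3G58610, chr3:21671433-21674885, plus strand, 10 exons) reduces and rearranges acetolactate. It had 83.5, 72.6 and 85.8 CPM in GmWRI1 libraries (977, 525 and 424 counts), against 67.3, 70.6 and 54.2 CPM in mCHERRY libraries (550, 435 and 219 counts). GmWRI1 replicate 2 was only just above mCHERRY replicate 2. KARI rose by 0.32 on the log2 scale (SE 0.11, edgeR adjusted p = 0.0281), 1.249-fold with an interval of 1.06 to 1.47. Leaving out GmWRI1 replicate 1 (0.29, edgeR adjusted p = 0.0729), GmWRI1 replicate 3 (0.29, edgeR adjusted p = 0.0765) or mCHERRY replicate 3 (0.22, edgeR adjusted p = 0.137) ended the call, and the range over 15 alternatives was 0.0141 to 0.137.

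DHAD (AT3G23940, chr3:8648669-8652605, plus strand, 14 exons), an iron-sulfur enzyme that yields the keto acids of valine and isoleucine, had the largest fitted value of the 10. It had 34.2, 26.7 and 34.0 CPM in GmWRI1 libraries (400, 193 and 168 counts), against 19.2, 20.5 and 15.6 CPM in mCHERRY libraries (157, 126 and 63 counts). The groups were well apart. DHAD rose by 0.76 on the log2 scale (SE 0.15, edgeR adjusted p = 0.000288), 1.70-fold with an interval of 1.38 to 2.09, and the call held under all 15 alternatives (adjusted p at most 0.00195).

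Isopropylmalate synthase commits carbon to leucine, and its 2 genes differed in level and in fitted change. IPMS1 (AT1G18500, chr1:6368966-6373080, plus strand, 12 exons) was the most abundant member. It had 227, 216 and 240.7 CPM in GmWRI1 libraries (2654, 1559 and 1190 counts), against 183, 204 and 196 CPM in mCHERRY libraries (1499, 1258 and 792 counts). The lowest GmWRI1 library was above the highest mCHERRY library by little. Its log2 fold change of 0.23 (SE 0.09) missed the threshold narrowly (edgeR adjusted p = 0.0508), at 1.17-fold with an interval of 1.03 to 1.33. It passed with library size alone as the scaling (0.27, edgeR adjusted p = 0.0172) and without GmWRI1 replicate 2 (0.26, edgeR adjusted p = 0.0383).

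IPMS2 (AT1G74040, chr1:27842109-27845782, plus strand, 12 exons), whose coding sequence was 84.8% identical to that of IPMS1, had 23.0, 27.1 and 25.1 CPM in GmWRI1 libraries (269, 196 and 124 counts). In mCHERRY libraries it had 14.6, 16.4 and 15.6 CPM (119, 101 and 63 counts). The groups did not overlap. IPMS2 rose by 0.69 on the log2 scale (SE 0.14, edgeR adjusted p = 0.00071), 1.61-fold with an interval of 1.31 to 1.99, and the call held under all 15 alternatives. No stretch of 50 bases was shared between the 2 transcripts, so uniquely aligned reads of that length would separate them.

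The relative amount of the 2 isopropylmalate synthase transcripts was compared within libraries, where library size cancels. IPMS2 made up 9.20%, 11.2% and 9.44% of the reads of the pair in GmWRI1 libraries, against 7.36%, 7.43% and 7.37% in mCHERRY libraries. The groups did not overlap, and the mCHERRY libraries were nearly equal. The log2 ratio of IPMS2 to IPMS1 was higher by 0.46 in GmWRI1 libraries (two-sided exact permutation p = 0.1, the smallest that 3 libraries per group allow, and 0.25 adjusted over 5 ratios). This exact test could not pass 0.05 for any of the ratios.

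IPMS2 has a neighbour whose level moved with it. ENO1 (AT1G74030, chr1:27839159-27842132, minus strand), which encodes plastid enolase, starts head to head with IPMS2, and their exons overlap by 24 bp on opposite strands. ENO1 averaged 338 ± 32.5 CPM in GmWRI1 and 53.1 ± 2.32 CPM in mCHERRY libraries (SD, n = 3 each; log2 fold change 2.67, SE 0.10, edgeR adjusted p = 5.96e-15). The 3 upstream AW Box matches of IPMS2, centred at -81.5, -341.5 and -477.5 bp from its start, all lie inside ENO1. One is in the ENO1 5′ UTR and the others are in its coding sequence. Use of strand in counting was not stated. No 50-base stretch of the IPMS2 transcript occurred in another transcript on either strand. An overlap of 24 bp is too short to hold such a stretch, so this search could not bear on reads that cross it. The part of ENO1 in the IPMS2 value was not tested.

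The isomerase that follows is built from a large and a small subunit. IIL1, the large subunit, had 123, 122 and 115 CPM in GmWRI1 libraries, against 95.3, 89.1 and 92.8 CPM in mCHERRY libraries. It rose by 0.38 on the log2 scale (SE 0.09, edgeR adjusted p = 0.00236) with no overlap between groups. IPMI SSU1, the small subunit with the most reads, did not pass the test (edgeR adjusted p = 0.604), with a log2 fold change of -0.08 and overlapping groups. The small subunits IPMI SSU2 and IPMI SSU3, which also serve methionine chain elongation, had 0 to 3 counts in any library and were not tested.

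Isopropylmalate dehydrogenase carries out the last oxidation of the leucine branch. IMD3 (AT1G31180, chr1:11142662-11144650, minus strand, 8 exons) held most of the reads of the 3 genes. It had 33.2, 23.8 and 28.1 CPM in GmWRI1 libraries (389, 172 and 139 counts), against 20.1, 16.1 and 15.8 CPM in mCHERRY libraries (164, 99 and 64 counts). The groups did not overlap. IMD3 rose by 0.71 on the log2 scale (SE 0.15, edgeR adjusted p = 0.0011), 1.63-fold with an interval of 1.30 to 2.04, and the call held under all 15 alternatives.

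IMD2 (AT1G80560, chr1:30287763-30290299, plus strand, 11 exons) had 4.78, 6.64 and 9.71 CPM in GmWRI1 libraries (56, 48 and 48 counts), against 5.50, 3.57 and 2.23 CPM in mCHERRY libraries (45, 22 and 9 counts). GmWRI1 replicate 1 lay below mCHERRY replicate 1, and the libraries of each group spread widely. The fitted log2 fold change of 0.75 had an SE of 0.32 and missed the threshold (edgeR adjusted p = 0.0708, 1.68-fold with an interval of 1.07 to 2.65). Without GmWRI1 replicate 1 it was 1.00 (edgeR adjusted p = 0.0191) and without mCHERRY replicate 1 it was 1.16 (edgeR adjusted p = 0.0207), both past the fold limit. The adjusted p ran from 0.0191 to 0.268 over 15 alternatives, so the call changed with single libraries and with the test.

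IMD1 (AT5G14200, chr5:4576123-4578402, plus strand, 9 exons), known in Arabidopsis for its part in glucosinolate synthesis, had the fewest reads. It had 3.16, 2.90 and 3.64 CPM in GmWRI1 libraries (37, 21 and 18 counts), against 3.79, 1.46 and 2.47 CPM in mCHERRY libraries (31, 9 and 10 counts). The groups overlapped, with mCHERRY replicate 1 above all GmWRI1 libraries. At 0.27 on the log2 scale (SE 0.36), IMD1 did not pass the test (edgeR adjusted p = 0.604), and the value became -0.03 without mCHERRY replicate 2. A difference was not detectable at this depth, and the interval of 0.72 to 2.01-fold includes values as large as those of the called members.

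The coding sequences of IMD1 and IMD3 were 94.98% identical, whereas IMD2 was 83.8% identical to IMD1 and 82.7% identical to IMD3. Of all 50-base stretches, 7.90% of those in IMD3 and 6.56% of those in IMD1 occur in another transcript. For each gene that transcript was most often the other of the pair. Reads from such stretches have no single best location and would not have been counted, so at that read length both genes would be undercounted. The share could be larger for shorter reads, and the length of the aligned reads was not examined. IMD3 overlaps an antisense gene, AT1G31175, by 55 bp (log2 fold change 0.20, edgeR adjusted p = 0.361), and IMD1 overlaps antisense AT5G14210 by 25 bp (0.16, edgeR adjusted p = 0.777). Within libraries, the log2 ratio differed by 0.51 for IMD2 to IMD1, by 0.30 for IMD3 to IMD1 and by -0.21 for IMD3 to IMD2, as GmWRI1 minus mCHERRY. The groups overlapped in all 3 ratios (two-sided exact permutation p = 0.4, 0.5 and 0.6, and 0.6 for each when adjusted over 5 ratios).

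Branched-chain aminotransferases add the amino group, and BCAT3 and BCAT5 are plastid forms. BCAT3 (AT3G49680, chr3:18422542-18425758, plus strand, 10 exons) had 79.9, 83.0 and 90.8 CPM in GmWRI1 libraries (935, 600 and 449 counts), against 49.9, 55.2 and 54.4 CPM in mCHERRY libraries (408, 340 and 220 counts). The groups were far apart relative to their spread. Its log2 fold change of 0.67 had the smallest adjusted p of the 10 members (SE 0.10, edgeR adjusted p = 2.04e-05), 1.59-fold with an interval of 1.37 to 1.84. The call held under all 15 alternatives.

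BCAT5 (AT5G65780, chr5:26315390-26318857, plus strand, 12 exons) had 19.0, 16.7 and 16.0 CPM in GmWRI1 libraries (222, 121 and 79 counts), against 15.8, 13.1 and 12.9 CPM in mCHERRY libraries (129, 81 and 52 counts). The groups did not overlap, but the lowest GmWRI1 library barely exceeded the highest mCHERRY library. The fitted value of 0.30 did not pass the test (SE 0.16, edgeR adjusted p = 0.154, 1.23-fold with an interval of 0.98 to 1.56). In the RefSeq annotation its first exon overlaps the upstream gene LINC4 (AT5G65770) by 438 bp on the same strand, and 16.7% of its 50-base stretches occur elsewhere. LINC4 averaged 160 ± 10.1 CPM in GmWRI1 and 160 ± 13.2 CPM in mCHERRY libraries (SD, n = 3 each), and the part of such reads in the BCAT5 value was not tested.

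The log2 ratio of BCAT5 to BCAT3 was lower by 0.36 in GmWRI1 libraries, as the difference of -0.36 in GmWRI1 minus mCHERRY. BCAT5 made up 19.2%, 16.8% and 15.0% of the reads of the pair in GmWRI1 libraries, against 24.02%, 19.2% and 19.1% in mCHERRY libraries. GmWRI1 replicate 1 and mCHERRY replicates 2 and 3 were nearly equal. With 0.5 added to each count the ratios did not overlap between groups (two-sided exact permutation p = 0.1, the smallest possible, and 0.25 adjusted over 5 ratios), but with nothing added they did (-0.36, exact permutation p = 0.2). The coding sequences of BCAT3 and BCAT5 were 82.1% identical. BCAT2, a further plastid form that was counted in the breakdown list, averaged 7.71 ± 1.94 CPM in GmWRI1 and 5.46 ± 2.38 CPM in mCHERRY libraries (SD, n = 3 each), and the groups overlapped. The log2 fold change of BCAT2 was 0.55 (edgeR adjusted p = 0.143), or 0.88 without mCHERRY replicate 3 (edgeR adjusted p = 0.0228). BCAT6 had 0 to 4 counts in any library, and BCAT7 was not listed in any count file.

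**Figure D3:**
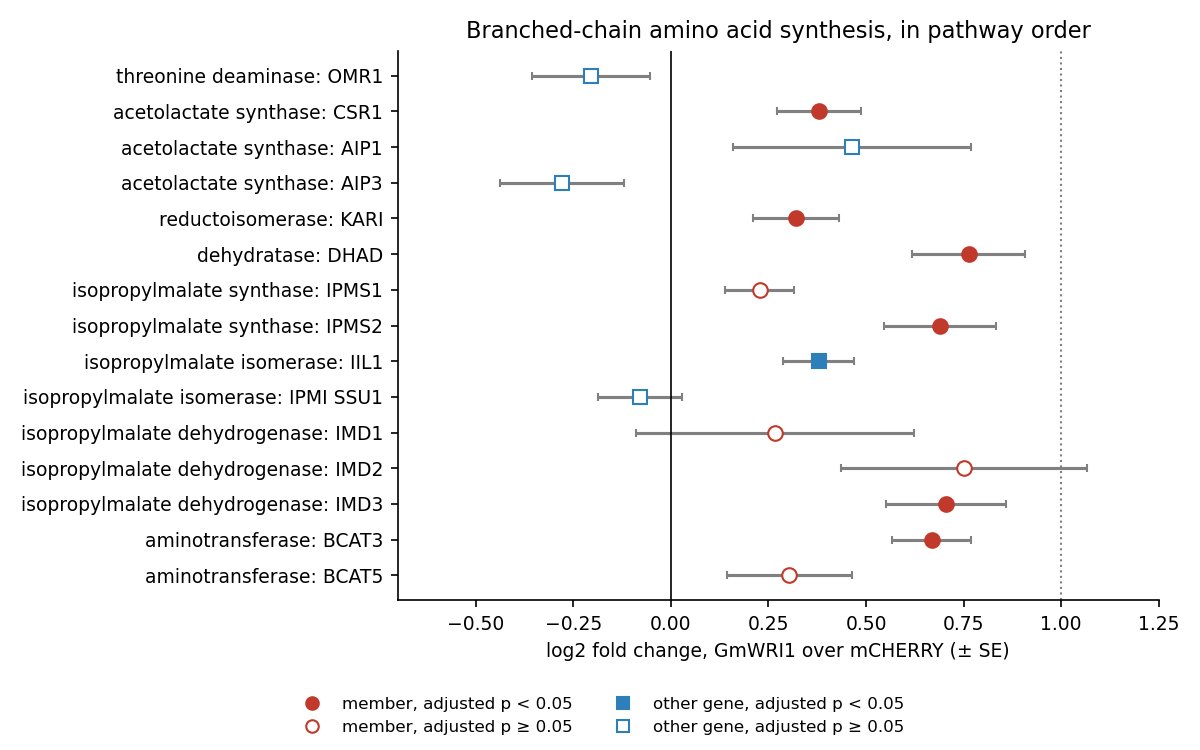
Log2 fold change of GmWRI1 over mCHERRY (points, with bars of 1 SE) for every tested gene of BCAA synthesis in pathway order from top to bottom, members as circles and other genes as squares, filled where the adjusted p is under 0.05. All circles lie to the right of 0 and to the left of the dotted fold limit of 1, while OMR1, AIP3 and IPMI SSU1 lie to the left of 0.

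Threonine deaminase feeds 2-oxobutyrate into the isoleucine branch and is the point at which isoleucine inhibits its own synthesis. OMR1, its gene, had 18.6, 18.7 and 16.8 CPM in GmWRI1 libraries, against 23.4, 17.2 and 22.02 CPM in mCHERRY libraries. The groups overlapped (log2 fold change -0.20, SE 0.15, edgeR adjusted p = 0.32). Of the 9 other BCAA synthesis genes examined, 5 were tested. One, IIL1, was higher without the fold limit, 0 were lower, and the median log2 fold change was -0.08, against 0.52 for the members. With the fold limit 0 were called by any of the edgeR tests or DESeq2, and IIL1 was the only one with an unadjusted p under 0.05. Without the fold limit, 20.4% of all tested genes were higher at the adjusted p.

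Levels per kb of transcript allow members to be compared with each other. The order was the same in both groups, from IPMS1 through CSR1, BCAT3, KARI, IMD3, DHAD, IPMS2, BCAT5 and IMD2 to IMD1. The length used for BCAT5 includes 438 bp shared with LINC4, where reads may not have been counted. Its level per kb may therefore be too low, and its place in the order is uncertain. IPMS1 stood at 91.2 ± 5.04 in GmWRI1 and 77.9 ± 4.20 in mCHERRY libraries, in CPM per kb (SD, n = 3 each). IMD1 stood at 2.00 ± 0.231 in GmWRI1 and 1.59 ± 0.722 in mCHERRY libraries, in the same unit. Among GmWRI1 libraries, CSR1 and BCAT3 were the only neighbours in the order whose ranges overlapped. Among mCHERRY libraries the overlapping neighbours were BCAT3 and KARI, DHAD and IPMS2, IPMS2 and BCAT5, and IMD2 and IMD1. IPMS1 made up 34.7% to 36.9% of the members' summed CPM in GmWRI1 libraries, against 37.1% to 42.6% in mCHERRY libraries.

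**Figure D4:**
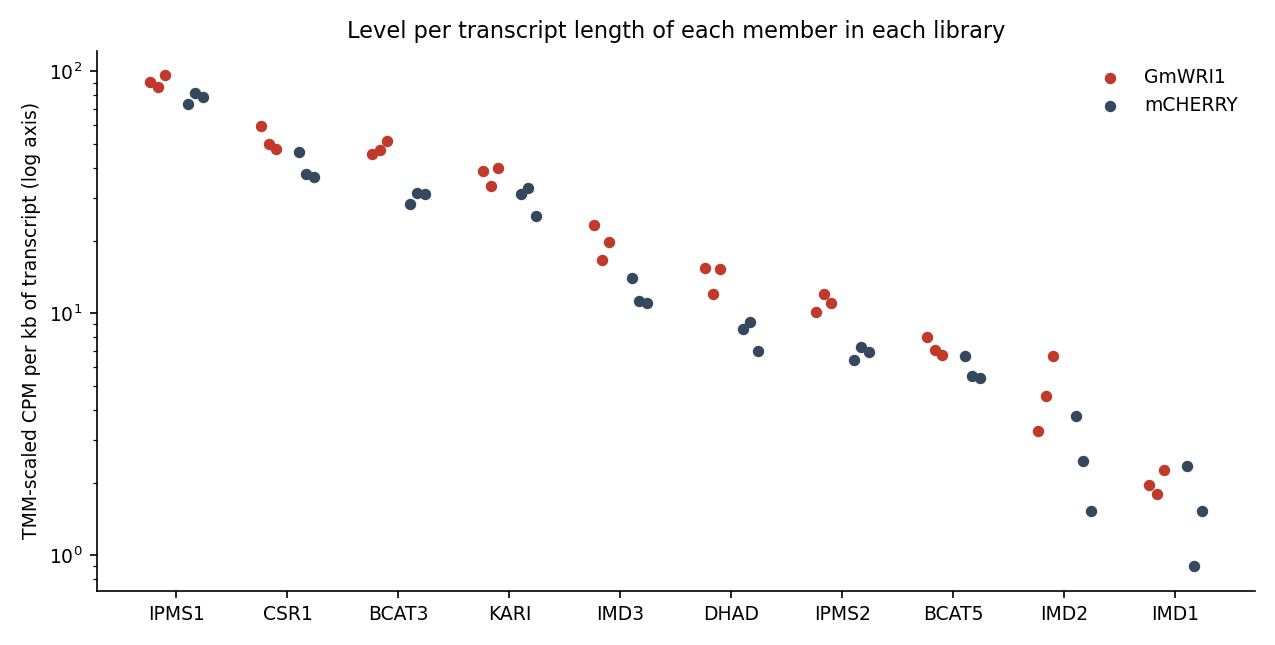
TMM-scaled CPM per kb of transcript (log axis) of each member in each library, GmWRI1 in red to the left of mCHERRY in dark blue, with members ordered by their mCHERRY mean. The order of means is the same in both groups, and IPMS1 and IMD1 are at its ends. The place of BCAT5 is uncertain, because part of its length is shared with LINC4.

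Genes that supply plastid pyruvate or compete for it were compared with the members. Of 5 genes of plastid pyruvate supply, 4 were up with the fold limit and all 5 were higher without it, with a median log2 fold change of 2.12. They were the plastid pyruvate kinases PKP2 (4.97), PKP1 (4.90) and PKP3 (2.01), the pyruvate transporter BASS2 (2.12) and the plastid malic enzyme NADP-ME4, which at 0.94 stayed under the limit. All 7 plastid PDH subunits were up, with log2 fold changes of 2.97 to 8.95 and a median of 5.25. EMB3003 (8.95), LTA2 (6.71), PDH-E1 BETA (5.82) and LPD2 (5.25) had the largest values. DXS1, which takes pyruvate into plastid isoprenoids, was higher by 0.83 (SE 0.12, edgeR adjusted p = 6.91e-06), just above the range of the members' values. By the same rules, 9.44% of all tested genes were up and 20.4% were higher without the fold limit.

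The balance between CSR1 and the other enzymes that draw on pyruvate was compared in an analysis added after the data were examined. Per kb of transcript, CSR1 stood at 52.4 ± 6.003 CPM and PDH-E1 ALPHA at 161 ± 16.5 CPM in GmWRI1 libraries, against 40.3 ± 5.25 CPM for CSR1 and 20.7 ± 0.977 CPM for PDH-E1 ALPHA in mCHERRY libraries (SD, n = 3 each). CSR1 was thus the lower of the pair in GmWRI1 libraries and the higher in mCHERRY libraries. The log2 ratio of CSR1 to PDH-E1 ALPHA differed by -2.58 as GmWRI1 minus mCHERRY, and that of CSR1 to DXS1 by -0.45. Neither ratio overlapped between groups (two-sided exact permutation p = 0.1 for each, the smallest possible, and 0.175 adjusted over 7 ratios).

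The shikimate pathway, a plastid route to aromatic amino acids, drains phosphoenolpyruvate and served as another amino acid pathway for comparison. Of its 9 tested genes 1, the shikimate kinase gene SK2 (log2 fold change 0.36, edgeR adjusted p = 0.0335), was higher without the fold limit. Another, DHS3, which encodes the entry enzyme, was lower (-0.26, edgeR adjusted p = 0.0404), and the median was -0.13. Both calls were lost under some alternatives (adjusted p 0.00326 to 0.171 for SK2 and 0.0131 to 0.162 for DHS3). With the fold limit 0 were called by edgeR or DESeq2, also at an unadjusted p. By the rule without the fold limit, 20.4% of all tested genes were higher and 14.6% lower.

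Threonine supply, which precedes isoleucine, gave 1 gene up among 6 tested of 9. This was AK-HSDH2, a bifunctional aspartate kinase and homoserine dehydrogenase, with 15.6, 15.1 and 12.7 CPM in GmWRI1 libraries, against 5.99, 5.84 and 6.43 CPM in mCHERRY libraries (log2 fold change 1.27, SE 0.19, edgeR adjusted p = 2.20e-05). AK1, a monofunctional aspartate kinase, fell by 0.35 on the log2 scale (SE 0.09, edgeR adjusted p = 0.00424) with no overlap between groups. The median of the list was 0.22. Among all tested genes 9.44% were up with the fold limit and 14.6% were lower without it. The methionine chain elongation genes MAM1 and BCAT4, which are related to IPMS and BCAT genes, had 1 to 6 counts and 0 to 5 counts per library, and MAM3 and BASS5 were not listed in any count file.

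BCAA breakdown, which runs largely in mitochondria, is the opposite process. The list also held BCAT2 and CHY1, a peroxisomal hydrolase of valine breakdown. Of 12 tested genes of 13, 4 were up and 9 were higher without the fold limit, 0 were lower, and the median log2 fold change was 0.82, against 0.52 for the members. The 4 were DIN3 (2.22), a subunit of the branched-chain keto acid dehydrogenase, IVD (1.90), which oxidises isovaleryl-CoA from leucine, ALDH6B2 (1.65), which acts in valine breakdown, and BCKDH E1A2 (1.13), another subunit of the dehydrogenase. DIN3 had 111, 144 and 104 CPM in GmWRI1 libraries, against 24.5, 25.3 and 28.5 CPM in mCHERRY libraries, with no overlap. Of all tested genes, 9.44% were up and 20.4% were higher without the fold limit. The difference between the breakdown and synthesis lists was not tested.

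**Figure D5:**
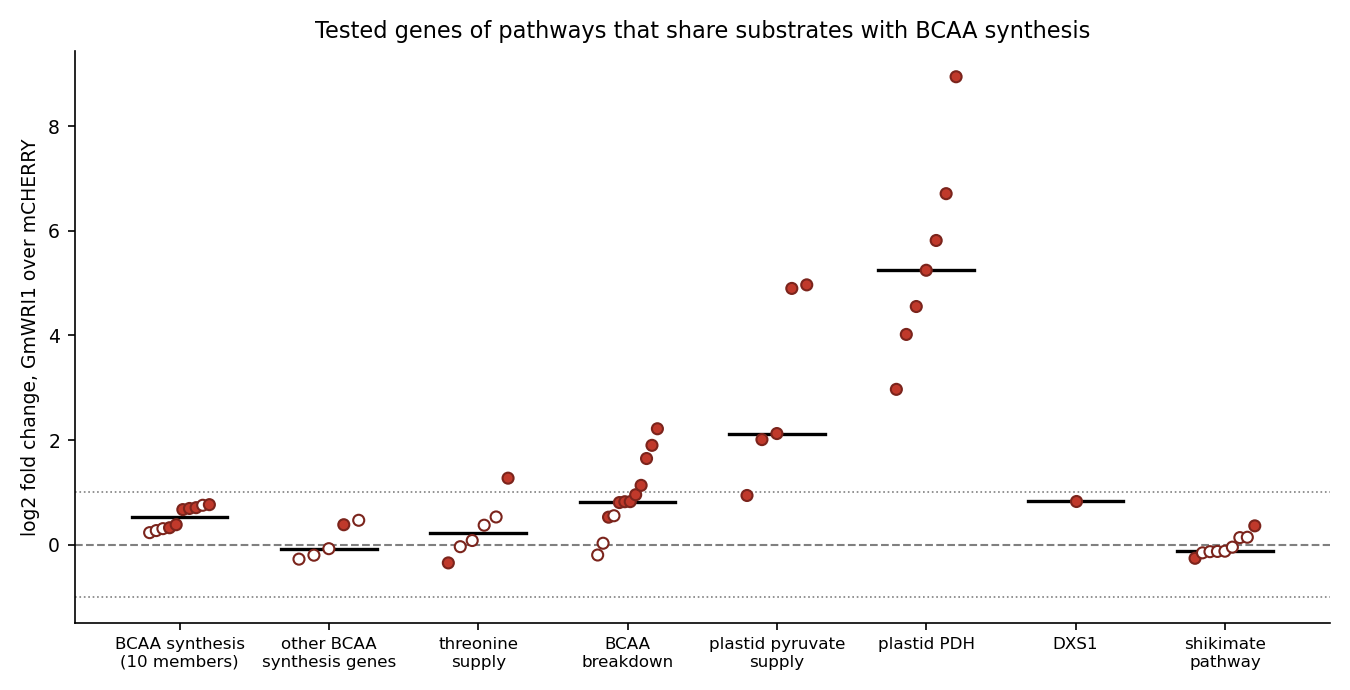
Log2 fold change of GmWRI1 over mCHERRY for the tested genes of each list (points, filled where the adjusted p is under 0.05), with the list's median as a bar, the median of all tested genes as a dashed line at -0.01 and the fold limits as dotted lines at 1 and -1. The 10 members lie between 0.23 and 0.76, and the 7 plastid PDH genes between 2.97 and 8.95.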

How the data were processed

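RNA-seq of 6 protoplast libraries was used. According to the methods, cDNA was amplified from total RNA, and the authors discarded rRNA reads and mapped the others to TAIR10 primary transcripts with bowtie 0.12.7, so that only uniquely placed reads were kept. The deposited files hold raw read counts per transcript, and the authors' table holds a normalized expression signal from TMM in edgeR 3.10.5, used only as an alternative gene set. A line that names no gene (39.4% to 63.3% of reads) was left out, and 0 columns were unmatched.

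The quasi-likelihood test of edgeR 4.0.16 (R 4.3.3) was run on the counts after filterByExpr (minimum count 10) and TMM scaling, in a model with group alone and with Benjamini-Hochberg adjustment over 14762 genes. SEs came from the F statistic and 95% intervals from the fit. Replicate p-values measure the spread between labelled biological replicates. Within-library ratios used counts plus 0.5. DESeq2 1.42.0, other scalings, filters and tests, a replicate block and leaving out each library were alternatives. Counts were also simulated from these genes and libraries (14589 tested). Of genes changed by 0.5 on the log2 scale, 19 of 50 raised and 20 of 49 lowered passed the adjusted p. Of those changed by 1.5, 49 of 50 raised and 50 of 50 lowered passed, as did 8 of 14390 unchanged genes. The simulation gave all genes the same variability between replicates and changed far fewer genes than were called in the data. Its rates are therefore not the detection rates of the real comparison.

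The members and lists were chosen with earlier results of these data known. All members are named. From other lists, all genes are named where a list has 5 loci or fewer, otherwise up to 4 called genes by size of change, with OMR1, AIP1, AIP3 and IIL1 always. IPMI SSU1, AK1, BCAT2, CHY1, PDH-E1 ALPHA and the genes overlapping members were named after their values were seen. IPMI SSU2, IPMI SSU3, BCAT6, BCAT7, TS1, BCDH BETA1 and HML1 were also named outside this rule. Coordinates, lengths and sequences are from RefSeq's annotation of TAIR10.1, whose gene models are newer than those the authors aligned to. Sequences were found for all 10 members.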

Additional observations from a re-analysis of the deposited data

How the results depend on the processing

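Over 15 alternatives for each of the 10 members, 136 of 150 log2 fold changes kept their direction and their side of the adjusted p of 0.05, 5 lost the call, 8 gained it and 1 changed sign. The members called higher without the fold limit numbered 5 to 7 with single libraries left out. With the fold limit the count ranged from 0 to 1, and the 1 was IMD2 without GmWRI1 replicate 1 or without mCHERRY replicate 1. IMD2 also passed the adjusted p with edgeR's exact test (0.78, edgeR adjusted p = 0.029), the likelihood ratio test (0.78, edgeR adjusted p = 0.0396) and no filter on low counts (0.75, edgeR adjusted p = 0.0262). The one sign change was IMD1 (leave-one-out range -0.031 to 0.75). Sign changes with a library left out were also seen in genes of the other lists that did not pass the test, TS1 (-0.13 to 0.0703), BCDH BETA1 (-0.37 to 0.0238) and HML1 (-0.0351 to 0.0942). The ratio of IMD3 to IMD2 ranged from -0.58 to 0.0538. Shikimate genes called without the fold limit numbered 0 to 1 in each direction with libraries left out. The count of those lower was 0 with library size alone, and of those higher 0 with DESeq2. The cause was not tested. The median of all genes moved by less than 0.1 on the log2 scale under every scaling.

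Replicate numbers are shared between the groups, but deviations of same-numbered libraries correlated at only 0.103, -0.00752 and 0.043, so they were not taken as pairs, and GmWRI1 replicate 2 correlated best with mCHERRY replicate 3. With a replicate block 7 members were higher without the fold limit, the added member being IPMS1 (0.23, edgeR adjusted p = 0.0424), and 0 were past it. The block changed no other call among the members and lists. IMD1 and IMD2 had the fewest counts of the members, 9 to 56 per library, and the part of depth in their spread was not tested.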
